A study of Mus musculus with 28 samples.

Results

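The 2 vehicle groups of the 3xTg mice were compared with each other. The study treated female 3xTg-AD mice with either of a pair of drug treatments and kept a separate vehicle group for each, and the labels of VehN and VehD differ in the vehicle alone. All hippocampal libraries labelled 3xTg VehN (n = 4) and 3xTg VehD (n = 4) were taken, 8 of the 28 libraries of the series. The comparison ran over the 16369 of 24062 genes that passed a filter on low counts.

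All 8 libraries come from female mice of the 3xTg genotype, which carry mutant human APP and tau transgenes driven by a Thy1 cassette, together with a mutant presenilin 1. VehN was matched to NAVI (navitoclax, also known as ABT263, an inhibitor of BCL-2 family proteins) and VehD to DQ (dasatinib, a tyrosine kinase inhibitor, with the flavonoid quercetin) by the last letter of the vehicle labels. Where other groups are used they are 3xTg with NAVI, 3xTg with DQ, WT (labelled BL6129) with NAVI, WT with DQ, and WT with a vehicle labelled only Veh, each of 4 libraries from females. The sources used here do not give the composition of the vehicles, the route and schedule of dosing, or the age of the mice. The labels do not say that each library is a separate animal, so the p-values measure the spread between these libraries, which may be partly technical.

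A vehicle is the solvent mixture in which a drug is given, and a vehicle group carries the handling, the dosing and the solvents without the drug. Handling and dosing can raise corticosterone, the main glucocorticoid of mice. Glucocorticoids bind the glucocorticoid receptor, encoded by Nr3c1, which enters the nucleus and binds a palindromic element in DNA. Genes that it induces in many tissues, the hippocampus among them, include Tsc22d3, Fkbp5, Sgk1, Per1 and Pdk4.

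The receptor's textbook element consists of AGAACA and TGTTCT separated by 3 bases (any bases, NNN; the element is its own reverse complement in these arms, so that 1 search covers both strands). It occurred in 3 of 32851 RefSeq promoter windows (0.00913%), each reaching from 250 bases before to 50 bases after a start site. One of those windows belongs to Sgk1, chr10:21993640-21993939 on the plus strand of GRCm38.p6, where the element lies between 189 and 175 bases before the start site. A promoter of Tsc22d3, chrX:140600473-140600772 on the minus strand, holds a single arm, TGTTCT. Both are shown because these genes carry the values below. Capitals mark the full element in Sgk1 and the arm in Tsc22d3; a further TGTTCT near the 5′ end of the Sgk1 window is left in lower case.
Sgk1: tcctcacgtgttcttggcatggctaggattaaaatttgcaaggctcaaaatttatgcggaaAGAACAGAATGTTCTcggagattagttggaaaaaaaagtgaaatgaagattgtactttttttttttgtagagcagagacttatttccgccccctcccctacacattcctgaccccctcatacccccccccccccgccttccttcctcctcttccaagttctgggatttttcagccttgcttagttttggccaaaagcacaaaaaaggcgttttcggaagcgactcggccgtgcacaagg
Tsc22d3: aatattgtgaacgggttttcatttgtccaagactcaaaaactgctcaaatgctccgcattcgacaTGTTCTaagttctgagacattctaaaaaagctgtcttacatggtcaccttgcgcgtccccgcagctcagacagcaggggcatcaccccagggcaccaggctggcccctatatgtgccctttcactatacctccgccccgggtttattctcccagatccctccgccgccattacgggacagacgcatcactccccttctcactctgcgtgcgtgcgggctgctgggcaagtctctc
At least 1 arm (AGAACA or TGTTCT, which are each other's reverse complement, so that a full element counts too) was present in 19.0% of all windows, and in 8 of 45 windows (17.8%) of the 31 glucocorticoid-responsive genes that had a window, out of 36 listed.

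No gene passed the test between VehN and VehD. At an adjusted p under 0.05 in edgeR's quasi-likelihood test, 0 of 16369 genes were called (0%). An unadjusted p under 0.05 was reached by 807 genes (4.93%), of which 522 (3.19%) were higher and 285 (1.74%) lower in VehN. The values of all VehN libraries lay above those of all VehD libraries in 242 genes (1.48%) and below them in 201 (1.23%). DESeq2 called 2 genes, Tmem252 (adjusted p = 0.0273) and BC018473 (adjusted p = 0.0428), and limma-voom called 0. BC018473 was low, at 0.697 to 3.43 CPM in VehN and 0.196 to 0.448 CPM in VehD. Its log2 difference in edgeR was 2.35, and 1.65 without VehN replicate 2. The median log2 difference over all tested genes was -0.01.

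The libraries did not separate by vehicle over the transcriptome. The root mean square log2 distance between a VehN and a VehD library averaged 0.475 over 16 pairs, against 0.453 within VehN and 0.473 within VehD over 6 pairs each. The first principal component of the 8 libraries held 47.5% of the variance, with VehD replicates 2 and 3 at its low end (-40.7 and -40.3). It also spread the rest. VehN replicates 1 and 2 and VehD replicates 1 and 4 were at 39.0, 24.5, 12.6 and 22.3. VehN replicates 3 and 4 lay between, at -12.6 and -4.82. Total counts ran from 39955040 to 52320840 per library. Total counts, detected genes, the share in the 100 highest genes and the GC slope had exact permutation p-values of 0.886, 0.4, 0.943 and 0.829, each with an adjusted p of 0.943 over the 4 measures, where 4 against 4 libraries cannot go below 0.0286.

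Tissue markers set some libraries apart within each vehicle group. Ttr, the transthyretin gene that choroid plexus epithelium expresses at a very high level, stood at 5366, 3611, 2327 and 2094 CPM in VehN replicates 1 to 4, against 2588, 27.9, 28.6 and 4779 CPM in VehD replicates 1 to 4. VehD replicates 2 and 3 were thus far below the remaining 6 libraries. The summed level of 16 choroid plexus genes ranged from 3825 to 9075 CPM in VehN and from 384 to 8329 CPM in VehD, and 16 of 16 had a positive log2 difference, with 0 at an unadjusted p under 0.05. Genes of the thalamus and habenula, which border the hippocampus, summed to 1570, 1211, 561 and 522 CPM in VehN and to 1057, 506, 506 and 1030 CPM in VehD. High thalamus values therefore occurred in 2 libraries of each group. Without VehD replicates 2 and 3 the medians of both lists changed sign, to -0.05 for the choroid plexus list and -0.17 for the thalamus list, and that of the thalamus list was -0.06 without VehN replicate 1.

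Genes that define the tissue, and the mouse counterparts of the transgenes, had overlapping ranges in both vehicle groups. The summed level of 12 genes that define the hippocampus was 5169 to 5964 CPM in VehN and 5326 to 5937 CPM in VehD. App, the amyloid precursor gene, ranged from 2410 to 3459 CPM in VehN and from 2747 to 3567 CPM in VehD (log2 difference -0.14, SE 0.0869). Mapt, the tau gene, ranged from 615 to 671 CPM in VehN and from 669 to 713 CPM in VehD (-0.09, SE 0.0558). Thy1, whose regulatory sequence drives the transgenes, ranged from 1598 to 2374 CPM in VehN and from 1905 to 2602 CPM in VehD (-0.15, SE 0.0955). The WT groups averaged between 1571 and 1640 CPM for App and between 676 and 723 CPM for Thy1. The vehicle groups overlapped for all of these genes, for Mapt only narrowly, and edgeR's adjusted p rounded to 1 for each. Of 4 genes listed as counterparts or promoter of the transgenes, 0 had a positive log2 difference, with a median of -0.12. The sources used here do not say whether App and Mapt counts include transgene reads.

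The glucocorticoid-responsive genes were mostly higher in VehN, without any of them passing the test. Of 36 listed genes, all of which were tested, 33 had a positive log2 difference, with a median of 0.25. At an unadjusted p under 0.05, 11 genes were higher and 0 lower, while 3.19% of all genes were higher at that level. In 9 of the 36 (25%), against 1.48% of all genes, every VehN library was above every VehD library. These were Tsc22d3, Fkbp5, Sgk1, Pdk4, Klf9, Nfkbia, Ddit4, Errfi1 and Hif3a. Counts of genes on a list describe these libraries, because its members are not replicates of a condition. This list and those below were chosen with earlier results of these data known. Tsc22d3 and Pdk4 are also marker genes of this comparison. The shares on a list are therefore not independent of these data.

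Tsc22d3 encodes GILZ, a leucine zipper protein that glucocorticoids induce and that restrains inflammatory signalling. It lies at chrX:140539528-140600522. Its level was 98.1, 132, 99.3 and 102 CPM in VehN replicates 1 to 4, against 83.2, 72.5, 82.5 and 75.2 CPM in VehD replicates 1 to 4. VehN replicate 2 was far above the rest, the other VehN libraries lay close together, and the lowest VehN library was still above the highest VehD library. The log2 difference was 0.46 (SE 0.118, unadjusted p = 5.85e-04, edgeR adjusted p = 0.681).

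Pdk4, a kinase that shuts down pyruvate dehydrogenase and is induced by both glucocorticoids and fasting, lies at chr6:5483351-5496278. It stood at 46.3, 63.5, 40.6 and 40.8 CPM in VehN and at 30.8, 29.5, 34.3 and 27.4 CPM in VehD. The groups did not overlap, and VehN replicate 2 was again the highest. The log2 difference was 0.65 (SE 0.172, edgeR adjusted p = 0.714), and 0.35 without the high thalamus libraries, VehN replicates 1 and 2 and VehD replicates 1 and 4.

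Sgk1, a kinase induced by corticosteroids whose promoter window with the full element is printed above, had 177, 173, 124 and 162 CPM in VehN and 114, 86.2, 103 and 102 CPM in VehD. Its log2 difference of 0.65 had a wider SE of 0.220 (edgeR adjusted p = 0.866). Here VehN replicate 1 was highest and VehN replicate 3 closest to VehD.

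Hif3a, a hypoxia-inducible factor subunit that glucocorticoids also induce, had 12, 26.7, 13.5 and 11.4 CPM in VehN and 8.14, 9.91, 8.37 and 7.07 CPM in VehD (log2 difference 0.93, SE 0.260, and 0.56 without VehN replicate 2). Nfkbia, the inhibitor that holds NF-kappa-B in the cytoplasm, had 16.8, 18.8, 15.1 and 18.5 CPM in VehN and 13.9, 11.0, 11.9 and 13 CPM in VehD (0.47, SE 0.131). Ddit4, an inhibitor of mTORC1 known as REDD1, had 48.3, 55.3, 44.7 and 56.5 CPM in VehN and 41.8, 36.2, 39.6 and 35.7 CPM in VehD (0.42, SE 0.118). These genes did not share 1 leading library, since VehN replicate 2 was far above the rest for Hif3a while VehN replicates 2 and 4 were about level for Nfkbia and Ddit4. The edgeR adjusted p was 0.796 for each.

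Fkbp5, the co-chaperone that lowers the receptor's affinity for its ligand, had 84.6, 105, 84.5 and 92.9 CPM in VehN and 75.2, 81.1, 77.2 and 77.2 CPM in VehD, with a log2 difference of 0.24 (SE 0.101). Errfi1, a feedback inhibitor of the EGF receptor, was at 0.19 (SE 0.0770), and Klf9, a Krüppel-like transcription factor, was at 0.13 (SE 0.0719). These were the smallest differences among the genes without overlap. Of the other listed genes, Lcn2, an iron-binding secreted protein of reactive astrocytes, had the highest log2 difference (1.73) with the groups overlapping. Its values were 2.55, 11.8, 0.784 and 1.44 CPM in VehN and 0.921, 0.610, 0.614 and 2.79 CPM in VehD. VehN replicate 2 was far above all the others.

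**Figure D1:**
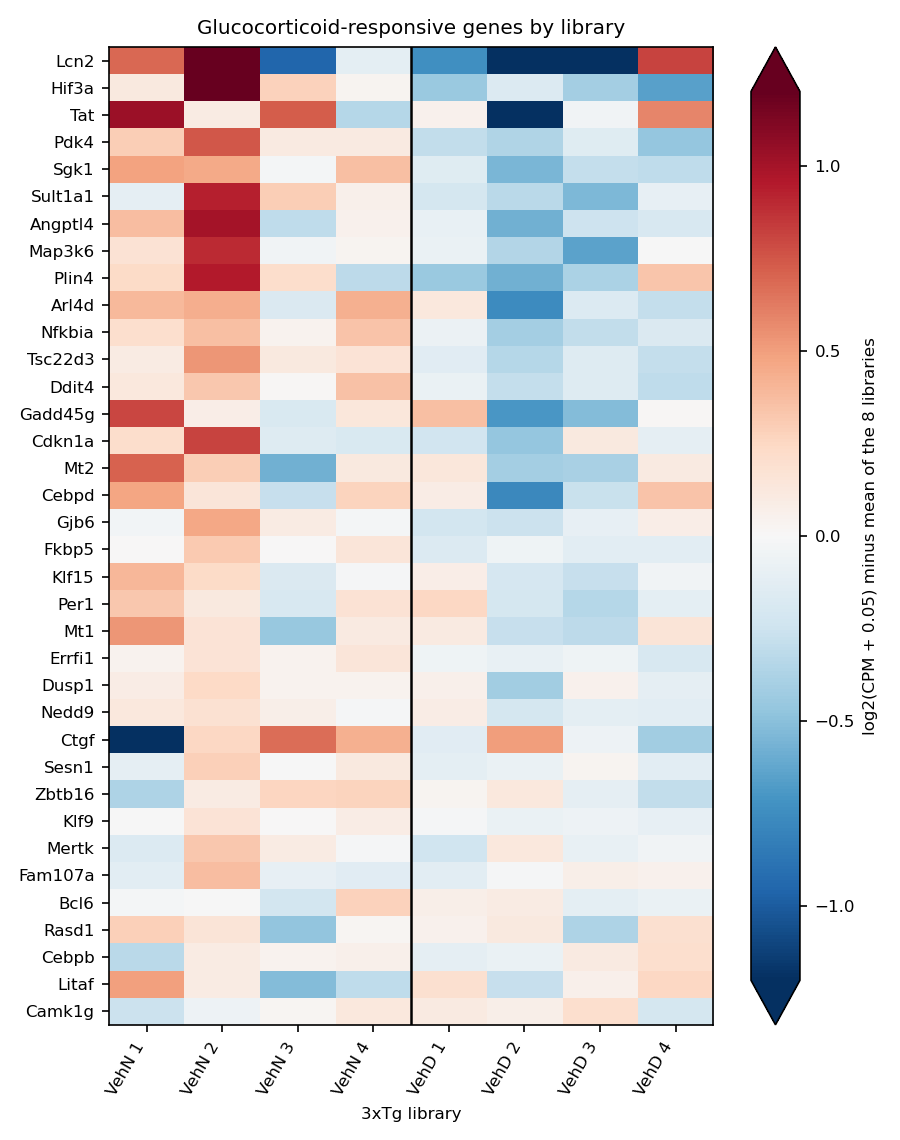
Level of each of the 36 glucocorticoid-responsive genes (rows, ordered by log2 difference) in the 8 vehicle libraries (columns, VehN left of the line and VehD right of it), as log2(CPM + 0.05) minus the gene's mean over the 8 libraries, with colours saturating at 1.2. Most rows are redder on the VehN side, VehN replicate 2 holds the deepest reds, and VehD replicate 2 holds many of the deepest blues.

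Averaged over the list, VehN replicate 2 was the highest library and VehD replicate 2 the lowest. The mean over its genes of log2 CPM, centred on the 8 libraries, was 0.17, 0.44, -0.05 and 0.08 in VehN replicates 1 to 4 and -0.06, -0.33, -0.21 and -0.05 in VehD replicates 1 to 4. All VehN libraries were thus above all VehD libraries, with VehN replicate 3 and VehD replicate 4 almost level. Without VehN replicate 2 the median log2 difference was 0.19, with 31 of 36 positive and 7 at an unadjusted p under 0.05, against 11 with all libraries. VehD replicates 2 and 3, which were low for choroid plexus, meningeal and vascular markers, were also the lowest here. Without those, 31 of 36 were positive with a median of 0.20 and 7 at an unadjusted p under 0.05. With marker scores for choroid plexus and thalamus as covariates 33 of 36 were positive, with a median of 0.24 and 15 at that level. Without the 4 high thalamus libraries 31 of 36 were positive, with a median of 0.23 and 4 at that level. The count over all 16369 genes changed too. In the order given, 405, 481, 763 and 547 genes reached that level in these refits, against 807 in the fit reported above.

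The receptor genes and enzymes of steroid metabolism did not lean the same way. Nr3c1, the glucocorticoid receptor, averaged 146 CPM in VehN and 157 CPM in VehD (log2 difference -0.11, SE 0.0837). Nr3c2, the mineralocorticoid receptor that hippocampal neurons express strongly, averaged 147 CPM in VehN and 148 CPM in VehD (-0.01, SE 0.106). Hsd11b1, which regenerates active glucocorticoid inside cells, averaged 31.4 CPM in VehN and 29.4 CPM in VehD (0.09, SE 0.103). Of 11 tested genes for receptors and steroid metabolism, 2 had a positive difference. Of 19 clock genes, 11 did, with a median of 0.02.

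Across all 7 groups, Tsc22d3 was highest in 3xTg VehN (108 ± 16.4 CPM), followed by WT NAVI (93.0 ± 18.1), 3xTg NAVI (83.6 ± 11.0), WT DQ (79.0 ± 4.28), 3xTg VehD (78.3 ± 5.33), 3xTg DQ (77.8 ± 4.44) and WT Veh (76.9 ± 10.1; SD, n = 4 each). The ranges of VehN and WT NAVI overlapped, and the last 5 groups lay within each other's spread. Pdk4 was also highest in 3xTg VehN, at 47.8 ± 10.8 CPM, followed by 3xTg NAVI at 36.2 ± 9.09, 3xTg DQ at 32.6 ± 7.70 and 3xTg VehD at 30.5 ± 2.87, while the WT groups were lowest, at 29.6 ± 5.63 with NAVI, 24.4 ± 4.10 with DQ and 22.7 ± 0.667 with vehicle. For both genes VehD was near the NAVI and DQ groups of 3xTg, and the VehN mean was above them. Over the whole list the picture was two-sided: the mean of log2 CPM centred on all 28 libraries was 0.16 ± 0.206 in VehN, the highest of the 7 groups, and -0.16 ± 0.131 in VehD, the lowest (SD, n = 4 each). The next lowest was 3xTg DQ at -0.08 ± 0.0427. VehD also had the lowest mean of the 7 groups for Fkbp5 (77.7 ± 2.47 CPM) and Ddit4 (38.3 ± 2.91 CPM; SD, n = 4).

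**Figure D2:**
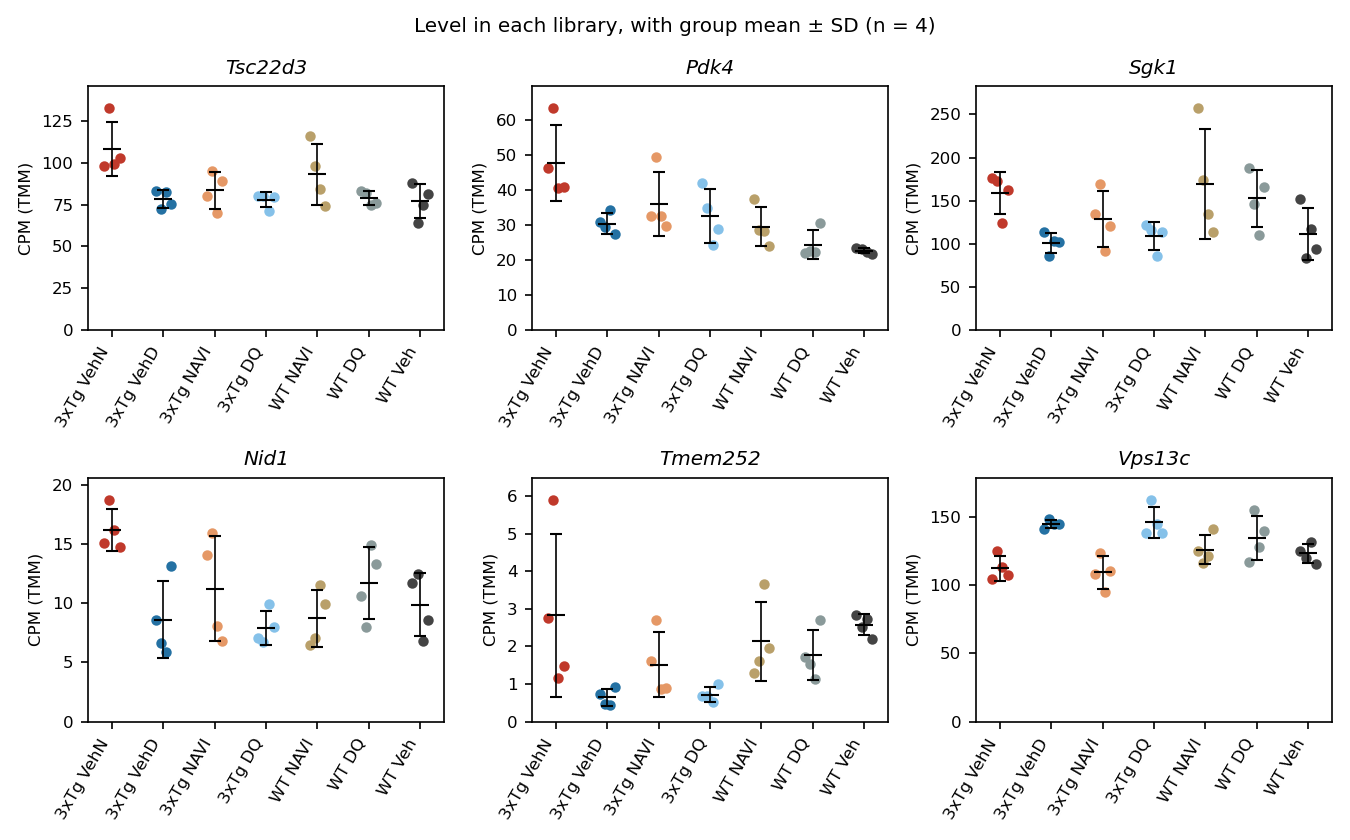
Level in CPM (vertical axes, from 0) of Tsc22d3, Pdk4, Sgk1, Nid1, Tmem252 and Vps13c in each library of the 7 groups; points are libraries, and black marks give the group mean ± SD (n = 4). In 3xTg, VehN lies above VehD without overlap for Tsc22d3, Pdk4, Sgk1, Nid1 and Tmem252, and below it for Vps13c, and WT NAVI and WT DQ reach as high as VehN for Sgk1.

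The genes whose levels followed Tsc22d3 most closely over the 8 vehicle libraries were Rrp8 (Pearson's r = 0.979), Slc26a2 (0.973), Apold1 (0.972), Pdk4 (0.967) and Tmem45a (0.965). Rrp8 acts in silencing of ribosomal DNA, Slc26a2 is a sulfate transporter, and Apold1 is an endothelial early-response gene. Their log2 differences were 0.35, 0.45, 0.83, 0.65 and 0.94, and none passed the test. With 8 points, of which VehN replicate 2 is an extreme one, these values are a description of shared ordering.

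Genes of the vessel wall and the meninges were higher in VehN on average, and these moved with the libraries that were low in choroid plexus. In bulk tissue, fewer cells of a type and less RNA per cell cannot be told apart. Of 23 basement membrane and collagen genes, 22 had a positive log2 difference, with a median of 0.55, 10 at an unadjusted p under 0.05 and 5 (21.7%) without overlap between the groups. Among all genes 3.19% were higher at that level and 1.48% were higher without overlap. The median was 0.48 for 16 pericyte and smooth muscle genes, of which 15 were positive, 8 were higher at the unadjusted level and 5 (31.2%) had no overlap. It was 0.38 for 22 endothelial genes, of which 21 were positive and 11 higher at the unadjusted level and 1 (4.55%) had no overlap, from which nothing is read about the list. It was 0.84 for 16 meningeal fibroblast genes, of which 16 were positive, 6 were higher at the unadjusted level and 3 (18.8%) had no overlap. The collagen and meningeal lists share 3 genes.

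Nid1, or nidogen 1, links laminin to collagen IV in basement membranes, and lies at chr13:13437602-13512275. It had 15.1, 18.7, 16.2 and 14.8 CPM in VehN, against 8.62, 6.67, 5.92 and 13.2 CPM in VehD. The VehN libraries were close together, VehD replicates 2 and 3 were lowest, and VehD replicate 4 nearly reached the VehN range. The log2 difference was 0.91 (SE 0.271, edgeR adjusted p = 0.796), and it was 0.57 without VehD replicates 2 and 3, which moves it by more than 1.5 times.

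Among the laminins, Lama1 had 8.38, 11.0, 6.37 and 8.22 CPM in VehN and 5.58, 2.92, 2.71 and 5.34 CPM in VehD (log2 difference 1.04, SE 0.308). Lama4, the laminin chain of vessels, had 7.89, 11.4, 8.36 and 9.40 CPM in VehN and 5.38, 5.90, 4.26 and 7.29 CPM in VehD (0.70, SE 0.232). Neither pair of groups overlapped. Col3a1, a fibrillar collagen of fibroblasts, was at 1.47 (SE 0.560) and Col1a2 at 1.09 (SE 0.449). Without VehD replicates 2 and 3 Lama1 was at 0.63, Col3a1 at 0.87 and Col1a2 at 0.51.

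The contractile genes of smooth muscle were also higher in VehN, without passing the test. Tagln, or transgelin, had 11.3, 15, 11.1 and 12.1 CPM in VehN and 5.20, 3.40, 3.28 and 7.35 CPM in VehD (log2 difference 1.36, SE 0.330, edgeR adjusted p = 0.58). Myh11, smooth muscle myosin, had 16.0, 23.5, 15.3 and 14.9 CPM in VehN and 6.82, 4.23, 3.78 and 12.1 CPM in VehD (1.37, SE 0.403). Acta2, smooth muscle actin, was at 1.28 (SE 0.448) and Cnn1, calponin, at 1.80 (SE 0.621). For each of these 4 genes all VehN libraries were above all VehD libraries, and VehD replicates 2 and 3 were the lowest. Without those, Myh11 was at 0.88.

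The endothelial genes overlapped more. Ly6c1, a surface antigen of brain endothelium, had 35.9, 54.1, 32.1 and 26.9 CPM in VehN and 22.4, 22.1, 22.3 and 32.2 CPM in VehD (log2 difference 0.59, SE 0.179), so that VehD replicate 4 was above VehN replicates 3 and 4. Itm2a was the member without overlap, at 0.38 (SE 0.123). Slco1a4, an organic anion transporter, and Abcb1a, the P-glycoprotein pump, both of the blood-brain barrier, were at 0.45 (SE 0.146) and 0.44 (SE 0.146). Without VehN replicate 2 Ly6c1 was at 0.35, Abcb1a at 0.28 and the median of the list at 0.24, with 3 genes at an unadjusted p under 0.05. In that refit 405 of all 16369 genes reached that level, against 807 with all libraries.

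Leaving out VehD replicates 2 and 3 lowered these medians to 0.12 for basement membrane and collagen, 0.25 for pericyte and smooth muscle, 0.13 for endothelial and 0.37 for meningeal fibroblast genes. The number at an unadjusted p under 0.05 was then 0, 2, 0 and 0 in these lists. Of all 16369 genes, 481 reached that level in that refit, which has fewer libraries, against 807 with all libraries. With marker scores for choroid plexus and thalamus as covariates in place of leaving libraries out, the medians were 0.35, 0.45, 0.35 and 0.69. The numbers at that level were then 9, 8, 11 and 7, and 763 among all genes. The summed level of the meningeal genes was 787, 864, 673 and 698 CPM in VehN and 612, 369, 333 and 702 CPM in VehD, and no gene of this list that defines the cell type was at 0. The part that these tissue markers have in the vascular differences beyond those fits was not tested.

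**Figure D3:**
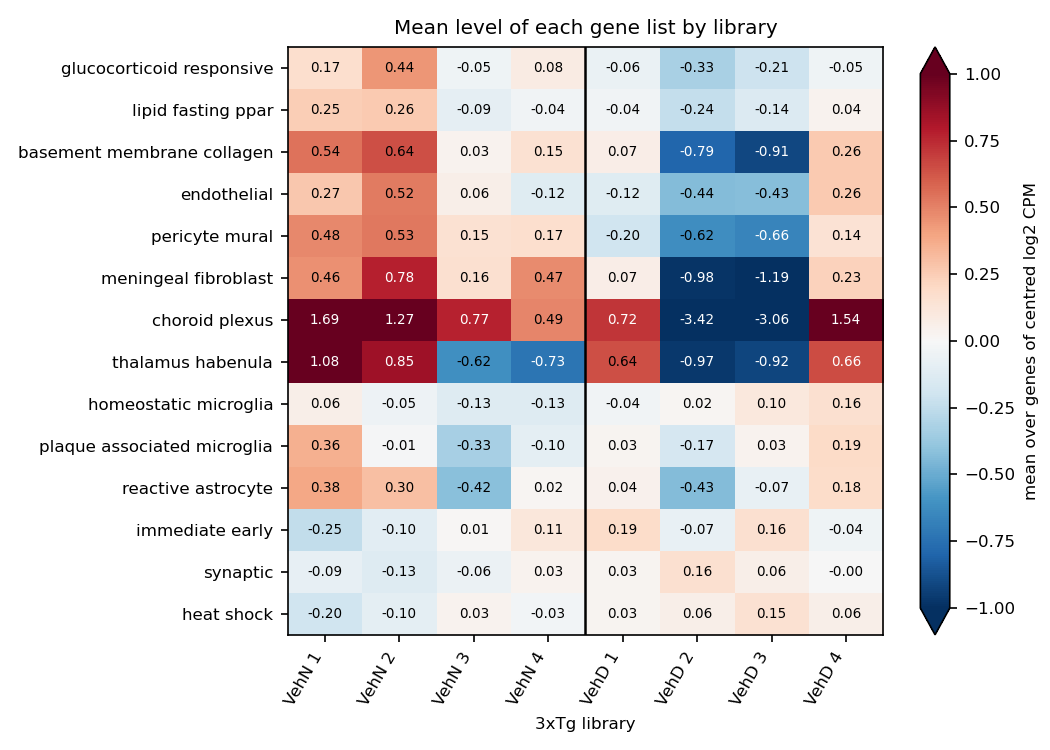
Mean over the genes of each of 14 lists (rows) of log2 CPM centred on the 8 vehicle libraries, by library (columns, VehN left of the line, VehD right of it), printed in each cell, with colours saturating at 1.0. VehD replicates 2 and 3 are at -3.42 and -3.06 for choroid plexus and are also the lowest for the meningeal, basement membrane and mural lists, whereas thalamus genes are high in VehN replicates 1 and 2 and VehD replicates 1 and 4.

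Tmem252, a small transmembrane protein gene at chr19:24674008-24679661, had the smallest p of all genes. Its level was 2.75, 5.90, 1.15 and 1.49 CPM in VehN, against 0.747, 0.479, 0.432 and 0.923 CPM in VehD. VehN replicates 1 and 2 carried most of the difference, although the groups did not overlap. The log2 difference was 2.12 (SE 0.453, unadjusted p = 8.68e-05, edgeR adjusted p = 0.58), and 1.47 without VehN replicate 2. VehD, at 0.645 ± 0.231 CPM (SD, n = 4), had the lowest mean of the 7 groups, next to 3xTg DQ at 0.720 ± 0.195 CPM, whereas WT Veh was at 2.57 ± 0.281 CPM.

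The 20 genes with the smallest p all had an edgeR adjusted p between 0.58 and 0.714. Higher in VehN were Tmem252, BC018473, Acer2, Aff1, Ccdc152, Tagln, Sdpr, Plod2, Igsf3, Tsc22d3, Il1r1, Zkscan2, Rrp8, Gpr116 and Pdk4. Lower in VehN were Inhba, Vps13c, Etv5, Specc1 and Depdc1b. Acer2, an alkaline ceramidase, had 37.6, 57.4, 33.2 and 21.4 CPM in VehN and 20.8, 15.8, 14.4 and 22.2 CPM in VehD, with VehN replicate 4 inside the VehD range (log2 difference 1.03, SE 0.239). Il1r1, the signalling receptor for interleukin 1, had 27.1, 41.1, 22.1 and 21.7 CPM in VehN and 15.1, 14.2, 18.2 and 21.8 CPM in VehD (0.69, SE 0.181, and 0.45 without VehN replicate 2).

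Vps13c, a lipid transfer protein at contacts between organelles, was lower in VehN, without passing the test. It had 104, 125, 113 and 107 CPM in VehN, against 141, 148, 145 and 145 CPM in VehD. The VehD libraries lay within a few CPM of each other and no VehN library reached them. The log2 difference was -0.37 (SE 0.0832, edgeR adjusted p = 0.58). Inhba, which encodes the activin subunit that neuronal activity induces, had 1.86, 1.77, 1.68 and 2.16 CPM in VehN and 3.09, 2.83, 3.91 and 3.85 CPM in VehD (-0.87, SE 0.194). Etv5, an ETS transcription factor downstream of growth factor receptors, was at -0.32 (SE 0.0771).

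Neuronal activity and synapse genes leaned lower in VehN by small amounts that depended on the libraries kept. Of 24 immediate early genes, 8 had a positive log2 difference, with a median of -0.11 and 3 (Fosb, Egr3 and Homer1) lower at an unadjusted p under 0.05, while 1.74% of all genes were lower at that level. Fosb, an AP-1 subunit induced by activity, had 4.34, 4.79, 6.52 and 6.30 CPM in VehN and 10.1, 8.04, 10.4 and 8.07 CPM in VehD (-0.74, SE 0.246, edgeR adjusted p = 0.866), without overlap. The only other gene of the list without overlap, Klf4, a Krüppel-like factor also expressed by endothelium, lay the other way, with 5.78, 7.92, 4.90 and 4.78 CPM in VehN and 3.73, 3.38, 4.78 and 4.77 CPM in VehD (0.49, SE 0.251, and 0.31 without VehN replicate 2). Of 28 synaptic genes, 1 was positive, with a median of -0.10 and 3 (10.7%) lower without overlap, against 1.23% of all genes. Nptx2, a secreted pentraxin that clusters glutamate receptors, had 15.6, 12.1, 14.3 and 12.5 CPM in VehN and 15.9, 17.7, 20.3 and 17.0 CPM in VehD (-0.38, SE 0.143). The synaptic count varied between refits while the median stayed negative. Without VehD replicates 2 and 3, 10 of 28 were positive (median -0.08). With the scores as covariates 8 of 28 were positive (median -0.07). Without the 4 high thalamus libraries 1 of 28 was positive (median -0.09). The part that tissue markers have in this count was not tested. The immediate early list also shifted. Without the 4 high thalamus libraries its median was -0.02, with 11 of 24 positive and 0 at an unadjusted p under 0.05. That count was 1 without VehD replicates 2 and 3, where the median was -0.10 and Egr3 and Homer1 were at -0.15 and -0.12. Of all 16369 genes, 547 and 481 reached that level in these refits, against 807 with all libraries. Averaged over the immediate early list the libraries overlapped, from -0.25 to 0.11 in VehN and from -0.07 to 0.19 in VehD.

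All 16 heat shock and chaperone genes had a negative log2 difference, with a median of -0.14, while 47.6% of all tested genes were positive. Ahsa1, which activates the ATPase of HSP90, had 102, 101, 108 and 110 CPM in VehN and 115, 118, 117 and 116 CPM in VehD (-0.15, SE 0.0556, edgeR adjusted p = 0.898). Hspa5, the chaperone BiP of the endoplasmic reticulum, had 333, 429, 526 and 427 CPM in VehN and 479, 505, 649 and 576 CPM in VehD (-0.37, SE 0.157). The Ahsa1 groups did not overlap and those of Hspa5 did. Without VehD replicates 2 and 3, 4 of the 16 were positive.

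The plaque-associated microglial genes, and Gfap and C4b, overlapped between the vehicles. Of 25 plaque-associated microglial genes, 8 had a positive log2 difference, with a median of -0.01 and 0 at an unadjusted p under 0.05. Trem2, the microglial lipid receptor, ranged from 8.32 to 16.3 CPM in VehN and from 11.9 to 14.5 CPM in VehD (-0.20, SE 0.220). Cst7, cystatin F, ranged from 7.10 to 9.89 CPM in VehN and from 6.72 to 11.4 CPM in VehD (-0.19, SE 0.311). The VehN range of Trem2 contained that of VehD, and the VehD range of Cst7 contained that of VehN.

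Gfap, the intermediate filament of astrocytes, ranged from 615 to 1296 CPM in VehN and from 880 to 1201 CPM in VehD (-0.17, SE 0.176). C4b, a complement component, ranged from 159 to 415 CPM in VehN and from 227 to 318 CPM in VehD (-0.02, SE 0.202). VehN replicate 1 was the highest of its group for both. Without the high thalamus libraries Gfap was at -0.38 and C4b at -0.35. Without VehD replicates 2 and 3 they were at -0.27 and -0.17. Of 24 reactive astrocyte genes, 13 had a positive log2 difference, with a median of 0.01. In 2 of them (8.33%), against 1.48% of all genes, every VehN library was above every VehD library. At an unadjusted p under 0.05, 2 were higher, against 3.19% of all genes. Without VehN replicate 2, 0 passed that level, while 405 of all 16369 genes did, against 807 with all libraries. The homeostatic microglial list was slightly lower in VehN, with 1 of 16 genes positive and a median of -0.12, and P2ry13, a purinergic receptor, was at -0.31 (SE 0.116) with overlap.

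Senescence genes, which both drugs are used against, were mixed in sign. Of 14 tested genes of senescence and cell cycle arrest, 9 had a positive difference with a median of 0.04. Cdkn1a, the inhibitor p21, had 12.9, 19.6, 9.98 and 9.76 CPM in VehN and 9.49, 8.04, 12 and 10.3 CPM in VehD (log2 difference 0.39, SE 0.218, edgeR adjusted p = 1), with overlap. It was 0.13 without VehN replicate 2 and -0.03 without the 4 high thalamus libraries. Cdkn2a, which encodes p16, was below the filter, with 5, 2, 0 and 1 counts in VehN and 5, 4, 3 and 8 counts in VehD. Of 16 tested BCL-2 family genes, the targets of navitoclax among them, 9 were positive with a median of 0.04.

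The drug groups given in these vehicles offer a second pair of groups that shares no library with the first, although each pair differs in its drug as well. NAVI against DQ in 3xTg gave 0 calls of 16369 at an adjusted p under 0.05 in edgeR (0%), 4 in DESeq2 and 8 in limma-voom, and 2367 genes (14.5%) at an unadjusted p under 0.05 in edgeR. In WT mice the same pair of drugs gave 11 calls (0.0672%) and 1611 genes (9.84%) at the unadjusted level. Of the 807 genes with an unadjusted p under 0.05 between the vehicles, 602 (74.6%) had the same sign between NAVI and DQ in 3xTg, against 53.8% of all genes. Between NAVI and DQ in WT, 42.6% had the same sign, against 50.4% of all genes. In 3xTg, 144 genes had an unadjusted p under 0.05 in the same direction in both pairs, which is 17.8% of the genes of the vehicle pair and 6.08% of those of the drug pair, and 3 were opposite.

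Vps13c was among those that repeated. It averaged 109 ± 11.7 CPM with NAVI and 146 ± 11.6 CPM with DQ in 3xTg (SD, n = 4 each; log2 difference -0.42, SE 0.0833, edgeR adjusted p = 0.150), close to the VehN and VehD means of 112 ± 9.10 and 145 ± 2.84 CPM. In WT the difference was -0.10 (SE 0.0831). Tmem252 was at 1.08 between NAVI and DQ in 3xTg (SE 0.456), Tagln at 1.11 (SE 0.334) and Inhba at -0.72 (SE 0.194), each with an edgeR adjusted p of 0.336. The edgeR test of a gene by gene difference between both pairs in 3xTg called 0 genes (0%), as did DESeq2 and limma-voom, with 666 (4.07%) at an unadjusted p under 0.05 in edgeR.

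The glucocorticoid-responsive genes were less uniform in the drug groups. Between NAVI and DQ, 24 of 36 were positive in 3xTg with a median of 0.16, and 17 of 36 in WT with a median of -0.04. Tsc22d3 was at 0.10 (SE 0.118) in 3xTg and 0.24 (SE 0.118) in WT, and its difference between the vehicle and drug pairs in 3xTg was 0.36 (edgeR adjusted p = 0.711). Pdk4 was at 0.15 in 3xTg and 0.28 in WT, and Fkbp5 at -0.11 and -0.13. The vascular lists were positive in 3xTg and negative in WT. The basement membrane and collagen genes had 23 of 23 positive in 3xTg (median 0.45) and 0 of 23 in WT (median -0.59), and the choroid plexus genes had 16 of 16 positive in 3xTg (median 0.55) and 0 of 16 in WT (median -0.86). Heat shock genes had 4 of 16 positive in 3xTg and 12 of 16 in WT.

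The genes with the smallest p in these pairs differed in how they behaved between the vehicles. Gja4, BC023829 and Sdhaf2 led NAVI against DQ in 3xTg, at 1.15, -0.29 and -0.22, and were at 0.30, -0.06 and -0.07 between VehN and VehD. Cthrc1, Mtmr12 and Erich5 led in WT, at 2.56, 0.51 and -1.53, all called, and were at 0.21, 0.05 and -0.50 between the vehicles, where Erich5 had no overlap. Cthrc1, Mtmr12 and Erich5 all lie on chromosome 15, and the cause of their differences in WT was not tested. Depdc1b, Zfp750 and Trappc3l had the smallest p for the difference between the pairs, at -1.86, 2.12 and 2.64, with edgeR adjusted p = 0.711 for each. Between the vehicles they were at -1.09, 0.96 and 1.26, each without overlap and without passing the test. The difference that picked these genes contains the vehicle difference, so nothing is read from the lack of overlap. Their levels were low, with VehN means of 0.244, 0.506 and 0.212 CPM and VehD means of 0.519, 0.256 and 0.0857 CPM.

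**Figure D4:**
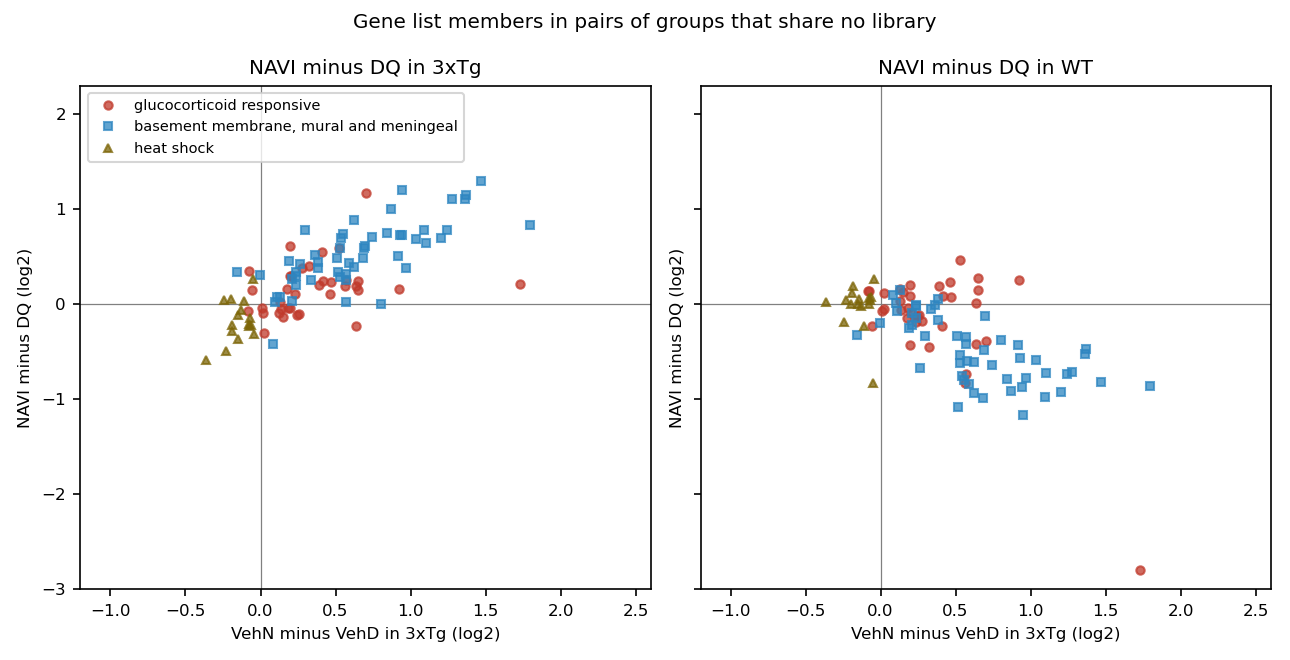
Log2 difference VehN minus VehD in 3xTg (horizontal axes) against NAVI minus DQ (vertical axes) in 3xTg (left) and in WT (right) for the tested members of the glucocorticoid-responsive list, the basement membrane, mural and meningeal lists together, and the heat shock list; each point is a gene. The vessel and meningeal genes lie mostly above 0 in 3xTg and below 0 in WT. The glucocorticoid-responsive genes lie mostly to the right of 0 (33 of 36) and spread around 0 on the vertical axes.

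Genes of lipid use and fasting, several of which glucocorticoids also control, were modestly higher in VehN. Of 22 tested genes 18 were positive, with a median of 0.12, and 3 of the listed genes are on the glucocorticoid list too. Angptl4, a secreted inhibitor of lipoprotein lipase, had 3.79, 5.88, 2.35 and 3.03 CPM in VehN and 2.74, 1.94, 2.46 and 2.55 CPM in VehD (0.63, SE 0.236). Txnip, which binds thioredoxin and limits glucose uptake, was at 0.36 (SE 0.145), and Acadl, an acyl-CoA dehydrogenase of mitochondria, at 0.14 (SE 0.0620). The groups overlapped for all 3. Without VehN replicate 2 Angptl4 was at 0.33 and Txnip at 0.21, and the median of the list was 0.02 without VehD replicates 2 and 3.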

How the data were processed

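The deposited file holds raw read counts per gene, which the authors made in 1 column for each library and did not normalize or pool. Libraries were stranded poly(A) libraries from 200 ng of RNA read as pairs of 100 bases, per the labels' protocols. STAR, Subread, featureCounts and the build mm10 are named in the submitters' processing notes, without versions. The sources used here do not give the strand setting or annotation, so counts of overlapping genes and close copies are uncertain. All 28 columns were matched to libraries by name, and 0 were left unused.

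Genes were tested with edgeR 4.0.16 (R 4.3.3), using TMM, the filterByExpr filter by group (7693 of 24062 genes removed), 1 coefficient per group, all 28 libraries and Benjamini-Hochberg adjustment within each comparison. P-values are two-sided, differences are log2 and the SE is the absolute difference over the square root of F. CPM used the TMM factors, and log2 CPM a prior count of 2. Alternatives used DESeq2 1.42.0 and limma 3.58.1. The tests were tried on simulated data.

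Genes were drawn from the 4 marker genes of the comparison, 9 genes of the model and of senescence, and the 20 genes with the smallest p. Others came from up to 4 genes of smallest p of each list described, and the 3 of smallest p of each other comparison. Not all were given values, and several of the 20 appear with their direction and the range of adjusted p alone. Further list members are named for counts of genes without overlap. Sgk1, Errfi1, Klf9, Lcn2, Acta2, the receptor genes and Ttr were named after their values were seen. The members and the 35 gene lists were chosen with earlier results of these data known. Gene positions and promoter windows are from RefSeq (GRCm38.p6, the patch release of mm10). GC content was found for 15590 of the tested genes (95.2%). No pair of libraries of 1 vehicle group agreed within sampling noise (lowest chi-square per degree of freedom 10.8).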

Additional observations from a re-analysis of the deposited data

Results flagged for a closer look

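Within a group of 4 libraries, a library was marked when its gap to the nearest other exceeded Dixon's critical share of the group's range. Among 176 sets of 4 values (70 genes, 14 lists and 4 library measures in each vehicle group) 8 were marked, and chance alone marks about 1 in 20. VehN replicate 2 was marked 3 times: Tsc22d3 was at 132.5 CPM there, against 98.1 to 102.5 CPM in the other VehN libraries, Hif3a at 26.68 CPM against 11.4 to 13.5 CPM, and Myh11 at 23.51 CPM against 14.9 to 16.0 CPM. Sall1, a microglial transcription factor, was at 24.0 CPM in VehN replicate 1 against 20.5 to 20.6 CPM in its group. Ly6c1 was at 32.25 CPM in VehD replicate 4 against 22.1 to 22.4 CPM in its group. VehN replicate 3 had the largest total of its group, at 52320840 counts. The number of genes with at least 10 counts was lowest of its group in VehN replicate 4 (15629) and highest of its group in VehD replicate 4 (15950).

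Depdc1b, a gene of the cell cycle, differed in direction between the pairs in 3xTg. All VehN libraries were below all VehD libraries (0.321, 0.272, 0.191 and 0.192 CPM in VehN, 0.398, 0.392, 0.637 and 0.648 CPM in VehD), while all NAVI libraries were above all DQ libraries. The log2 difference was -1.09 between the vehicles and 0.77 between the drugs. The difference between them was -1.857 (edgeR adjusted p = 0.711), which did not pass, and a small p of this difference is one reason the gene was named.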

How the results depend on the processing

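The vehicle comparison was refitted under 21 other settings. It gave 0 calls under 19, 2 under DESeq2 and 1 without VehN replicate 1 (Rsrp1, adjusted p = 0.0343), so that leaving out each library gave 0 to 1, and 405 to 1428 genes had an unadjusted p under 0.05. Replicate numbers did not pair the libraries (correlations 0.37, -0.28, 0.46 and -0.38 for numbers 1 to 4), and with a replicate block the counts of calls were 0 between the vehicles, 1 for NAVI against DQ in 3xTg and 13 in WT. NAVI against DQ in 3xTg had 4 calls with DESeq2 and 8 with limma-voom. In WT it had 38 with DESeq2, 39 with limma-voom, 1 with only the libraries compared and 5 to 18 when each library was left out. The difference between the pairs had 0 calls under each setting run. The cause of these shifts was not tested.

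Over 70 genes and 1465 refits, 1458 kept direction and side of the threshold, 2 came to pass it and 5 turned: Cdkn1a was at -0.026 with VehN replicates 1 and 2 and VehD replicates 1 and 4 (high thalamus) left out, and C4b ran from -0.28 to 0.17 when each library was left out. With the high thalamus libraries left out, the medians of the meningeal and choroid plexus lists were 1.40 and 4.09. When each library was left out, VehN minus VehD ran from -3018250 to 1018480 for total counts, from -0.119 to 0.0477 percentage points for the share in the 100 highest genes and from -0.0634 to 0.0297 for the GC slope. Leaving out VehD replicates 2 and 3, or the high thalamus libraries, was chosen after seeing the data. The choroid plexus and thalamus lists were not refitted with those scores as covariates. With 4 libraries a group, differences of low genes are the least certain.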
